A study of Homo sapiens with 6 samples.

Results

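The genes described here encode 2 plasminogen activators, the urokinase receptor, 1 serpin, 2 matrix metalloproteinases and 3 tissue inhibitors of metalloproteinases. They were chosen by name, as PLAU, PLAUR, PLAT, SERPINE2, MMP1, MMP14, TIMP1, TIMP2 and TIMP3, and make up 9 of the 25330 gene symbols in the deposited table of raw read counts. All 9 passed the filter on low counts, which left 14199 genes for testing. The samples are 6 poly-A RNA libraries of MDA-MB-231 cells, a long-established human line from a triple-negative breast tumour with mesenchymal features. Of these, 3 carry the genotype label CTRV2 control and 3 the label RNASEH2A KO, a knockout of the gene for the catalytic subunit of RNase H2. RNA of each group came from 3 passages, no treatment was given to either group, and all libraries bear 1 batch label. The labels do not say whether the knockout cells are 1 clone or a pool. All tests therefore rest on the spread among passages.

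Urokinase (PLAU) and tissue-type plasminogen activator (PLAT) cut plasminogen to plasmin, a broad protease that degrades fibrin and matrix proteins and activates several pro-MMPs. Urokinase works at the cell surface, held by its lipid-anchored receptor PLAUR, and serpins such as SERPINE2 (protease nexin-1) trap the active enzymes. The collagenase MMP1 and the membrane-bound MMP14 cleave fibrillar collagen, and TIMPs block the active site of MMPs. TIMP2 also bridges MMP14 to pro-MMP2 and so takes part in MMP2 activation. High urokinase, its receptor and MMP14 are well known from invasive, mesenchymal-type breast cancer lines.

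Library totals ran from 25419877 to 31596286 counts. The count of RNASEH2A itself was 6 to 15 in controls and 7 to 16 in the libraries labelled knockout, so it does not check the labels, and every direction below rests on them. Among the markers of the line, VIM, CD44, KRT8, KRT18, AXL and MSN summed to 5752 to 6232 CPM (counts scaled to library totals that were adjusted by TMM factors) in controls and 5353 to 5887 in knockouts, and 1 of the 6, KRT18, was called lower (-0.28 ± 0.06, adjusted p = 0.013). Of 6 markers listed as low or absent, ESR1 was at 0 and PGR and CDH1 were below 3 CPM in every library, but ERBB2, GATA3 and EPCAM were counted in all. Their control means were 115.8, 36.2 and 15.1 CPM, and these 3 did not pass. Knockout replicate 1 stood apart from knockout replicates 2 and 3. Its root-mean-square log2 difference from them over all tested genes was 0.49 and 0.41, against 0.33 between those 2 and 0.31 to 0.36 among controls. For this reason the 9 genes' fold changes and the ratios are also given without that library.

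For orientation, stretches of promoter sequence are shown for the 2 tested proteases whose counts moved most closely together, PLAU and MMP14, and for the urokinase receptor, whose promoter held the only match to the AP-1 motif among the 6 members found in the table. Sequences are from RefSeq (GRCh38.p14), 5′ to 3′ on the gene's strand. The PLAU and MMP14 stretches are cut where an exon annotated in GENCODE 29 begins. The PLAUR site is printed without that cut and lies inside the GENCODE 29 span of PLAUR, 43646095 to 43670547. The PLAU stretch also lies inside the GENCODE 29 span of its gene, 73909177 to 73917497. Capitals mark matches to the AP-1 motif TGANTCA, the ETS core AGGAAG or the GC box GGGCGG, on either strand. The PLAU stretch is chr10:73910882-73911103, the MMP14 stretch chr14:22836335-22836556 and the PLAUR site chr19:43670339-43670365.
PLAU: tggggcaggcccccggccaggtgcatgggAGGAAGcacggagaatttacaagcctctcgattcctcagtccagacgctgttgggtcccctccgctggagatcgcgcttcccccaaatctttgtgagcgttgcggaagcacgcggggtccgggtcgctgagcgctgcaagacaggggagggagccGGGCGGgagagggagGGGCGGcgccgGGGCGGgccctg
MMP14: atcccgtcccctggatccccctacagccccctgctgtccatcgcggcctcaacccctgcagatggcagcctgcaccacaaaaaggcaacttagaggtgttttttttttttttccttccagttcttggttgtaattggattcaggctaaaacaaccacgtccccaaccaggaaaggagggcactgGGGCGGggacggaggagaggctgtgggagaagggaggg
PLAUR: cacaactccaTGAGTCAgggccgagcc

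PLAU held 3 GC boxes and 1 ETS core and MMP14 held 1 GC box in the 250 bases before the start, and neither held the AP-1 letters there or the TATA box letters TATAAA. PLAU has a second start in the table, whose window held none of these motifs. Over promoters of the same length for tested genes, the GC box was found in 62.9%, the ETS core in 28%, AP-1 in 4.61% and the TATA box in 5.93%. A match is a string of letters, not evidence of binding.

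In controls the 9 genes spanned a wide range of levels. On the scale of CPM per kilobase of merged exons, which allows genes to be set against each other, TIMP1 was highest at 196 ± 18.2 (SD, n = 3), followed by MMP14 at 153 ± 9.03, TIMP2 at 134 ± 5.95, PLAU at 121.5 ± 6.94 and TIMP3 at 89.99 ± 8.55. PLAT, at 29.9 ± 2.67, and PLAUR, at 21.6 ± 2.25, were in the middle, and MMP1, at 3.65 ± 1.43, and SERPINE2, at 1.70 ± 0.154, were lowest. The control libraries of neighbours in this order did not overlap, but TIMP2 and PLAU were separated only by 127.2 against 126.5. Exon lengths were merged over all annotated transcripts, so small gaps between genes depend on that choice. In knockouts PLAU, at 194 ± 33.4, lay above TIMP2, at 169 ± 4.39, in the means only, since their libraries overlapped.

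Against the control, 3 of the 9 genes rose in the knockout libraries, 0 fell and 6 did not pass at an adjusted p under 0.05 (edgeR quasi-likelihood test). Of all tested genes 12.1% passed, made up of 5.88% higher and 6.22% lower. The genes that rose were PLAU, MMP14 and TIMP2. The 3 and 3 values did not overlap at 4 genes, these 3 and TIMP1, all higher in knockouts, beside 33.5% of all tested genes in either direction and 16.1% higher. The median log2 fold change was 0.24 over the 9 genes and 0.00 over all tested genes.

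**Figure D1:**
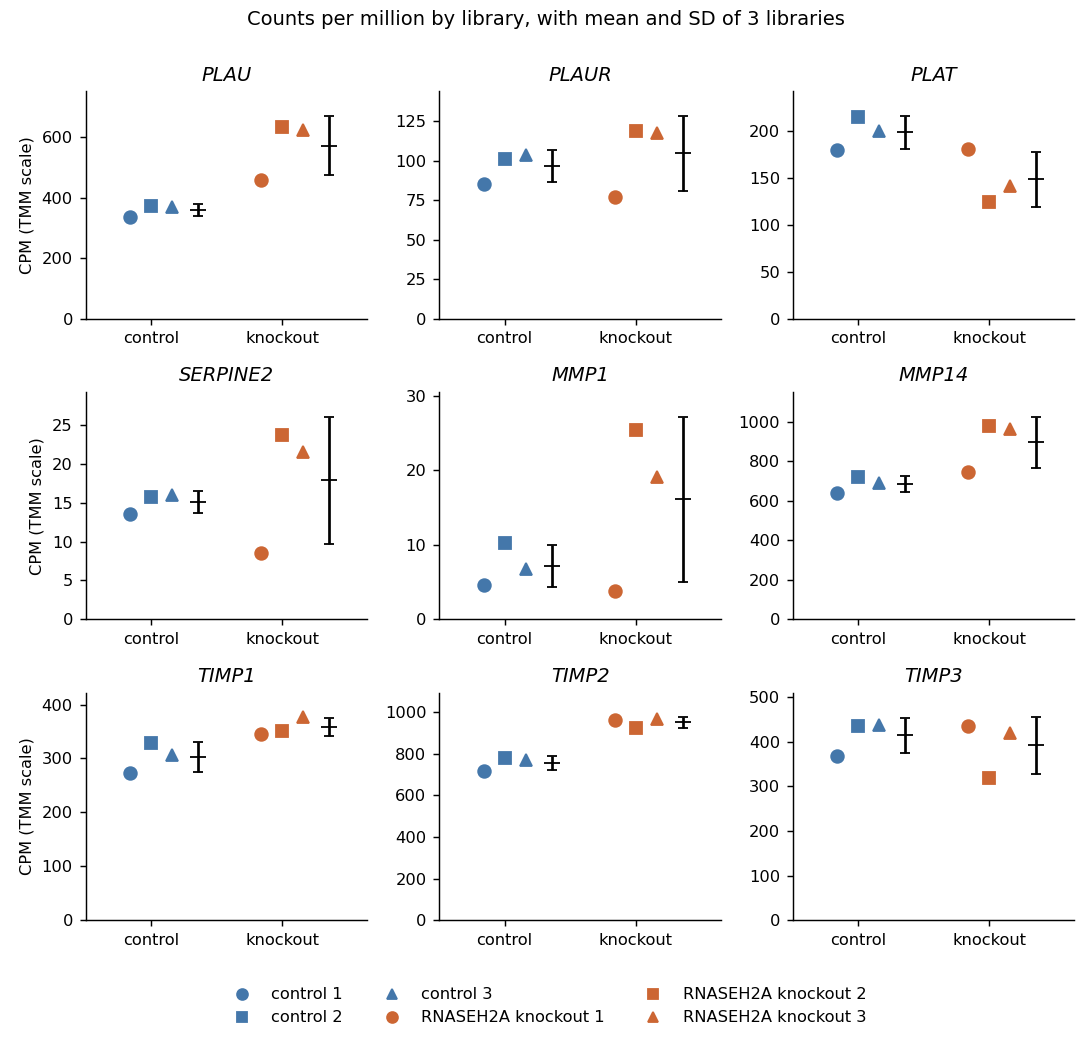
Level of each gene in each library, in CPM on the TMM scale (y axis, from 0, scaled per gene); points are libraries, with the shape giving the replicate number, and bars are mean and SD of 3 libraries. Knockout replicate 1 (circle) lies below both other knockouts for PLAU, PLAUR, SERPINE2, MMP1, MMP14 and TIMP1, and below all 3 controls for PLAUR, SERPINE2 and MMP1.

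PLAU (chromosome 10, 73909177 to 73917497, on the plus strand in GENCODE 29, GRCh38) had 335, 373 and 367 CPM in controls and at 459, 634 and 623 in knockouts. All 3 knockouts were above all 3 controls, with replicate 1 the nearest to them. The log2 fold change was 0.67 ± 0.11 (SE), a 1.6-fold rise (adjusted p = 0.00618). Exons of C10orf55 on the opposite strand cover 31.1% of the merged exons of PLAU. The strand setting of the counting is not known from the labels, so reads of the 2 genes there cannot be told apart. C10orf55 had 36 to 69 counts per library and PLAU 9259 to 17651, and the part of antisense reads in the PLAU value was not tested.

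The receptor gene PLAUR (chromosome 19, 43646095 to 43670547, minus strand) did not pass. It was at 85.0, 101 and 104 CPM in controls and at 77.0, 119 and 118 in knockouts, a log2 fold change of 0.12 ± 0.15 (adjusted p = 0.675). Knockout replicate 1 was the lowest of the 6 libraries and knockout replicates 2 and 3 were the highest. Without knockout replicate 1 the gene passed (0.30 ± 0.08, adjusted p = 0.0204).

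PLAT (chromosome 8, 42175233 to 42207724, minus strand) was the one plasminogen activator with lower means in knockouts, at 198 ± 17.7 and 148.5 ± 29.2 CPM, but it did not pass (log2 fold change -0.41 ± 0.13, adjusted p = 0.0642). Its values were 179.5, 215 and 200 CPM in controls and 181, 124 and 141 in knockouts. Knockout replicate 1 lay inside the control range and the other 2 below it. The gene passed without knockout replicate 1 (-0.58 ± 0.08, adjusted p = 0.000491), with DESeq2 (-0.41, adjusted p = 0.0136) and with no filter on low counts (adjusted p = 0.00197), and its adjusted p across alternatives lay between 0.000491 and 1.

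SERPINE2 (chromosome 2, 223975112 to 224039319, minus strand), a serpin that inhibits urokinase, plasmin and thrombin, had the lowest level per kilobase, with 13.5, 15.8 and 15.9 CPM in controls. In knockouts it was at 8.53, 23.7 and 21.5 CPM. Replicate 1 was thus below every control and replicates 2 and 3 above every control, and the fitted difference was 0.24 ± 0.30 (adjusted p = 0.651). Without knockout replicate 1 it was 0.58 ± 0.11 (adjusted p = 0.00244), and without knockout replicate 2 it was -0.01 (adjusted p = 0.995).

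MMP1 (chromosome 11, 102789920 to 102798160, minus strand), the interstitial collagenase, varied most of the 9 genes. Its counts were 137, 291 and 170 in controls, or 4.62, 10.2 and 6.75 CPM, and 123, 708 and 534 in knockouts, or 3.83, 25.5 and 19.04 CPM. Knockout replicate 1 was the lowest of the 6 libraries, while replicates 2 and 3 were above every control. The fitted log2 fold change of 1.16 ± 0.54 was larger in size than that of 97.3% of tested genes and did not pass (adjusted p = 0.201). Without knockout replicate 1 it was 1.63 ± 0.24 and passed (adjusted p = 0.000637), and with no filter on low counts it also passed (1.17, adjusted p = 0.00526). Exons of WTAPP1 on the opposite strand, not among the counted symbols, cover 7.61% of the merged exons of MMP1.

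MMP14 (chromosome 14, 22836557 to 22849027, plus strand), the membrane-type collagenase, was at 639, 719 and 690.5 CPM in controls and at 748, 979.9 and 964 in knockouts. All knockouts were above all controls, although replicate 1 exceeded the highest control by little. It rose by 0.39 ± 0.10 on the log2 scale, or 1.31-fold (adjusted p = 0.0322). The call was lost on leaving out any 1 library other than knockout replicate 1, with an adjusted p of 0.108, 0.0819 and 0.116 without control replicates 1, 2 and 3 and of 0.079 and 0.149 without knockout replicates 2 and 3. The 40 nearest tested genes on chromosome 14 had a median log2 fold change of 0.21, with 10 of them called, and after subtracting this median MMP14 was at 0.18 (adjusted p = 0.308).

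Of the inhibitors, TIMP2 (chromosome 17, 78852977 to 78925387, minus strand) had the tightest values. It stood at 716, 779 and 769 CPM in controls and at 964, 923 and 966 in knockouts, and knockout replicate 1 lay between the other 2. It rose by 0.33 ± 0.06 on the log2 scale, or 1.26-fold (adjusted p = 0.00631). TIMP1 (chromosome X, 47582313 to 47586789, plus strand) was at 272.5, 328 and 307 CPM in controls and at 346, 351 and 376 in knockouts. These groups did not overlap either, but the difference of 0.24 ± 0.08 did not pass (adjusted p = 0.0697). It passed with DESeq2 (adjusted p = 0.0454), with no filter on low counts (0.0224) and without knockout replicate 1 (0.27 ± 0.07, adjusted p = 0.0199), and its adjusted p across alternatives lay between 0.0152 and 1. TIMP3 (chromosome 22, 32801701 to 32863043, plus strand), the matrix-bound inhibitor, did not pass: at 369, 435 and 439 CPM in controls and 436, 319 and 420 in knockouts, only knockout replicate 2 left the control range (-0.08 ± 0.12, adjusted p = 0.707, and -0.16 ± 0.10 without knockout replicate 1). TIMP1 and TIMP3 each lie within an intron of a synapsin gene on the opposite strand, SYN1 and SYN3, with 0 shared exonic bases and at most 8 counts for either in any library. TIMP2 shares 3.52% of its merged exons with CEP295NL on the same strand and 6.52% with AC022966.1 on the opposite strand. CEP295NL had 5, 0 and 2 counts in controls and 18, 2 and 10 in knockouts. The part of such reads in the TIMP2 value was not tested.

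**Figure D2:**
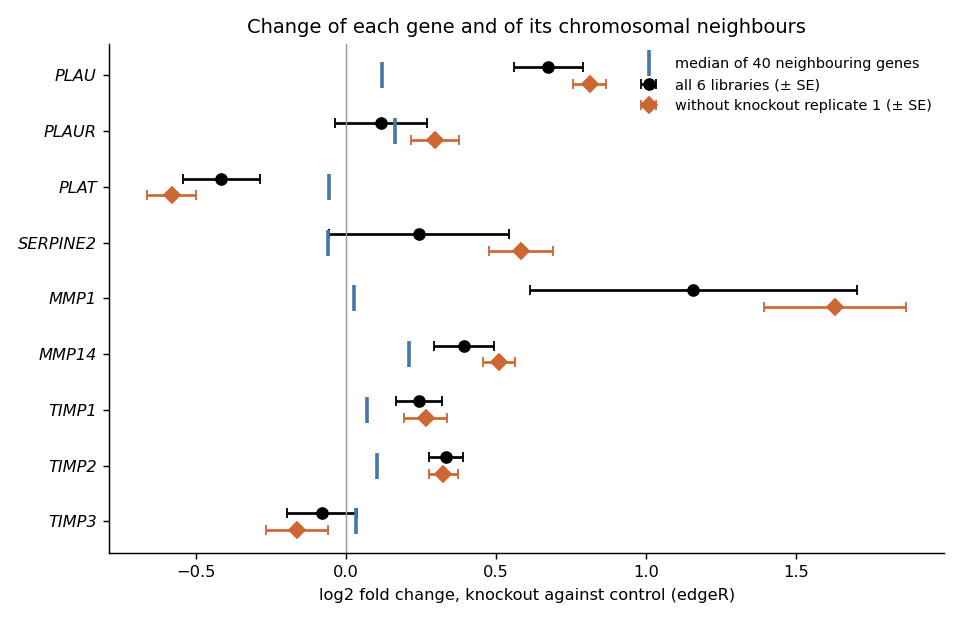
Log2 fold change of knockout against control for each gene (x axis) with all 6 libraries (black, ± SE) and without knockout replicate 1 (orange, ± SE), and the median of its 40 nearest tested neighbours (blue bar). PLAU lies far from its neighbours at 0.67 against 0.12, while MMP14 at 0.39 lies nearer to its own at 0.21.

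With knockout replicate 1 left out, 7 of the 9 genes were higher, 1 was lower and 1, TIMP3, did not pass. The background rose as well, since 23.8% of 14409 tested genes passed in that fit, 11.3% higher and 12.5% lower. PLAU (0.81 ± 0.05), MMP14 (0.51 ± 0.05) and TIMP2 (0.32 ± 0.05) kept their calls. For 6 of the 9 genes (PLAU, PLAUR, PLAT, SERPINE2, MMP1 and MMP14) knockout replicates 2 and 3 lay closer to each other than either did to replicate 1, which was so for 53% of all tested genes.

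Control replicate 1 was the lowest control for 9 of 9 genes, against 39% of all tested genes, and knockout replicate 1 was the lowest knockout for 6 of 9, against 40.4%. PLAUR, SERPINE2 and MMP1 had knockout replicate 1 below and knockout replicates 2 and 3 above every control, a pattern found at 3.94% of tested genes. In the related lists described below, F12, MMP16 and MMP17 had it too. The pattern was noticed in the values and carries no test. Over the 6 libraries PLAUR, SERPINE2 and MMP1 had Pearson correlations of log2 CPM of 0.97 (PLAUR and SERPINE2), 0.94 (PLAUR and MMP1) and 0.92 (SERPINE2 and MMP1). PLAU went with MMP14 (r = 0.985), and TIMP1 with TIMP2 (r = 0.91), while PLAT ran opposite to PLAU (r = -0.89). The points are the same 6 libraries of 2 groups, so these coefficients only describe them.

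Knockout replicate 1 also had the highest total count, 31596286, and the highest summed level of fibroblast markers, at 93.3 CPM against 49.3 to 54.8 in controls and 46.2 in the lowest knockout. That sum rests mostly on COL1A2 and PDGFRB. COL1A2 was at 22.2, 30.9 and 29.5 CPM in controls and 56.0, 26.7 and 39.2 in knockouts. PDGFRB was at 15.6, 11.6 and 11.5 CPM in controls and 27.2, 13.9 and 15.8 in knockouts. Knockout replicate 3 was thus also above every control for both genes, by little for PDGFRB. COL1A1 went the other way, at 10.867, 9.505 and 9.483 CPM in controls and 9.125, 4.492 and 5.17 in knockouts. LUM was at 0.81 CPM in knockout replicate 1, inside the control range of 0.607 to 2.385. Of the 8 fibroblast markers counted, PDGFRA was at 0 in every library and COL3A1, THY1 and FAP were each at or below 0.21 CPM, and 0 of the 4 tested were called. Leukocyte markers summed to 9.75 to 12.3 CPM in controls and 7.56 to 11.7 in knockouts, and endothelial markers to 3.44 to 4.21 and 2.80 to 5.13. The part of depth or of the fibroblast markers in the results was not tested. In bulk RNA, fewer cells of a kind and less RNA per cell cannot be told apart.

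Ratios of counts within a library do not depend on how libraries are scaled, and they set each protease against its partner or inhibitor as a description with no test. The urokinase to receptor ratio was higher in every knockout, and evenly so: the ratio of PLAU to PLAUR counts was 3.94, 3.70 and 3.55 in controls and 5.95, 5.34 and 5.29 in knockouts. The log2 ratio was 1.90 ± 0.08 (SD, n = 3) and 2.46 ± 0.09. Knockout replicate 1, which stood apart for both genes, was close to the other knockouts in this ratio. The ratio of PLAU to PLAT was 1.87, 1.74 and 1.84 in controls and 2.54, 5.12 and 4.43 in knockouts, so all knockouts were higher, but to unequal degrees.

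The ratio of PLAU to SERPINE2 was 24.8, 23.6 and 23.03 in controls and 53.7, 26.8 and 29.04 in knockouts, and here knockout replicate 1 was the highest. The ratio of MMP14 to TIMP2 showed no common direction. It was 0.892, 0.923 and 0.898 in controls and 0.775, 1.06 and 0.997 in knockouts, with replicate 1 below and the other 2 above all controls. MMP1 to TIMP1 followed the same order, at 0.0170, 0.0311 and 0.0220 in controls and 0.0111, 0.0725 and 0.0506 in knockouts. The log2 ratio of TIMP1 to TIMP2 was -1.32 ± 0.07 in controls and -1.41 ± 0.06 in knockouts, and the groups overlapped. Without knockout replicate 1, the knockout minus control difference in the log2 ratio went from 0.54 to 0.23 for PLAU to SERPINE2, from 0.60 to 1.42 for MMP1 to TIMP1 and from 0.05 to 0.19 for MMP14 to TIMP2. It went from 0.57 to 0.51 for PLAU to PLAUR, from 1.09 to 1.39 for PLAU to PLAT and from -0.089 to -0.055 for TIMP1 to TIMP2. The MMP1 to TIMP1 difference was 0.064 without knockout replicate 2 and 0.32 without knockout replicate 3.

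**Figure D3:**
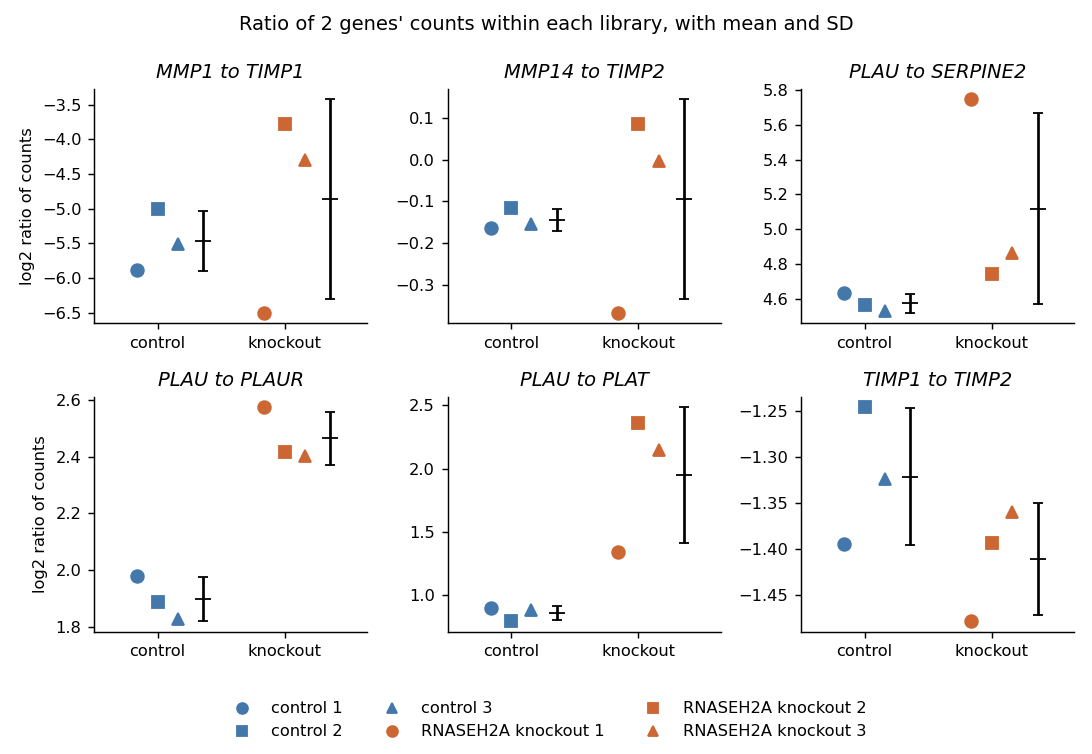
Log2 ratio of 2 genes' counts in each library (y axis, scaled per panel), with mean and SD of 3 libraries. PLAU to PLAUR is at 1.83 to 1.98 in controls and 2.40 to 2.57 in knockouts, whereas MMP14 to TIMP2 has knockout replicate 1 below and the others above the controls.

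Other genes of the same systems are described by counts. Between 6.67% and 21.4% of the tested genes of each of 5 lists passed, beside 12.1% of all tested genes. Without knockout replicate 1 the lists' shares were 25% to 57.1%, beside 23.8% of all tested genes. Of 15 tested genes of the plasminogen system other than the members, 1 rose and 0 fell, with a median log2 fold change of 0.02. The riser was SERPINB8, an intracellular serpin, from 17.1 ± 0.748 to 23.5 ± 2.72 CPM (0.46 ± 0.11, adjusted p = 0.0219). Its call was lost without any 1 control (adjusted p = 0.0791 to 0.0824) or without knockout replicate 3 (0.0583), and with the neighbour median subtracted (0.34, adjusted p = 0.0884). In this list 5 of 15 genes passed without knockout replicate 1 (33.3%, beside 23.8% of all tested genes). Some surface proteins that bind plasminogen were abundant and did not pass. ANXA2 was at 1444 ± 43.4 and 1300.0 ± 41.5 CPM (adjusted p = 0.0967). Its partner S100A10 was at 281 ± 7.98 and 299.7 ± 32.6 (adjusted p = 0.489), and ENO1 at 3142 ± 25.5 and 2956 ± 138 (adjusted p = 0.31). The plasminogen receptor PLGRKT was low, at 10.31 ± 0.76 and 10.04 ± 1.77 CPM (adjusted p = 0.892). LRP1, the endocytic receptor that clears protease and serpin complexes, was at 64.6 ± 4.94 and 69.4 ± 18.5 CPM (adjusted p = 0.726).

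Of the other MMP genes, 12 of 19 counted fell below the count filter, with at most 22 counts in any library. Among them was MMP9, a gelatinase, with 4 to 6 counts in controls and 0 to 4 in knockouts. Of the 7 tested, 1 rose and 0 fell. MMP19 went from 3.98, 3.44 and 5.12 CPM in controls to 7.75, 7.69 and 7.84 in knockouts (0.90 ± 0.17, adjusted p = 0.00954), and knockout replicate 1 did not stand apart. It narrowly lost its call without knockout replicate 3 (adjusted p = 0.0542). With knockout replicate 1 left out, 2 of 8 tested genes of the list passed (25%, beside 23.8%). MMP2, the gelatinase whose proenzyme MMP14 and TIMP2 activate, was nearly absent at 0.682 ± 0.0902 and 0.344 ± 0.165 CPM and did not pass (-0.96 ± 0.42, adjusted p = 0.169). MMP24 was at 7.49, 7.89 and 7.38 CPM in controls and 6.98, 3.85 and 3.99 in knockouts, lower in every knockout but not past the threshold (adjusted p = 0.105).

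Among 14 tested regulators of MMPs, 1 rose and 1 fell. PCSK6, a proprotein convertase, was at 0.436 to 0.979 CPM in controls and 5.95 to 6.20 in knockouts (3.15 ± 0.26, adjusted p = 0.000292). SPOCK3, a testican, was near the detection limit, at 0.540, 0.772 and 0.635 CPM in controls and 0, 0.216 and 0 in knockouts (adjusted p = 0.035), and its fitted fold depends on the prior count. The call of SPOCK3 ended without any 1 control or without knockout replicate 3 (adjusted p = 0.0779 to 0.139), that of PCSK6 did not end on leaving out any library. Of the list's 14 tested genes, 4 passed without knockout replicate 1 (28.6%, beside 23.8%). RECK, a membrane-anchored MMP inhibitor, averaged 9.75 ± 0.627 CPM in controls and 12.8 ± 1.19 in knockouts without passing (0.39 ± 0.12, adjusted p = 0.0602), and BSG, an inducer of MMPs, was at 1011 ± 43.6 and 900.2 ± 27.4 (-0.17 ± 0.06, adjusted p = 0.0862). The remaining TIMP gene, TIMP4, was at 2.18 ± 0.341 and 1.98 ± 0.413 CPM (adjusted p = 0.774).

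In the list of other surface and lysosomal proteases and their inhibitors, 2 of 14 rose and 1 fell. The secreted serine protease HTRA1 fell, from 404, 434 and 407 CPM to 276, 219 and 245 (-0.75 ± 0.08, adjusted p = 0.00101). The cathepsin inhibitor CSTB rose by 0.30 ± 0.06 and the dipeptidyl peptidase DPP4 by 0.59 ± 0.16. HTRA1 kept its call on leaving out any library, but its fall was smaller with the neighbour median subtracted (-0.40, adjusted p = 0.0222). CSTB lost it without any 1 control or knockout replicate 3 (adjusted p = 0.0554 to 0.0805), and DPP4 without any 1 library but knockout replicate 1 (0.0592 to 0.146), and both lost it with the neighbour median subtracted (0.21, adjusted p = 0.0756, and 0.52, adjusted p = 0.0791). In this list 8 of 14 genes passed without knockout replicate 1 (57.1%, beside 23.8%). Cathepsins B and D (CTSB and CTSD) did not pass, with an adjusted p of 0.232 and 0.103.

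AP-1 and ETS transcription factors are known regulators of urokinase and MMP promoters. Their list, which also held RUNX1 and RUNX2 of another family, was tested at 21 genes, of which 1 rose and 2 fell. ETS1 rose from 238, 226 and 228 CPM to 295, 311 and 326 (0.43 ± 0.06, adjusted p = 0.00289). ETV1 changed by -0.41 ± 0.09 and JUND by -0.51 ± 0.14. ETS1 kept its call on leaving out any library. ETV1 lost it without control replicates 2 or 3 or knockout replicate 3 (adjusted p = 0.0788 to 0.0898), and JUND without any 1 library but knockout replicate 1 (0.0861 to 0.186). With the neighbour median subtracted neither passed (ETV1 -0.30, adjusted p = 0.0735, and JUND -0.27, adjusted p = 0.289). JUND also lost its call with library size scaling (adjusted p = 0.0584) and with the filter at a mean of 1 CPM (0.0512). Of the list's 21 tested genes, 8 passed without knockout replicate 1 (38.1%, beside 23.8%). FOSL1, an abundant AP-1 subunit in this line, was at 460, 469 and 465 CPM in controls and 473, 627 and 600 in knockouts, and did not pass (0.29 ± 0.10, adjusted p = 0.084). The similarly abundant FOSL2 was lower in every knockout without passing (-0.13 ± 0.06, adjusted p = 0.203). It was at 494, 457 and 462 CPM in controls and 444, 439 and 409 in knockouts. JUNB was also lower in every knockout without passing (-0.18 ± 0.08, adjusted p = 0.185).

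**Figure D4:**
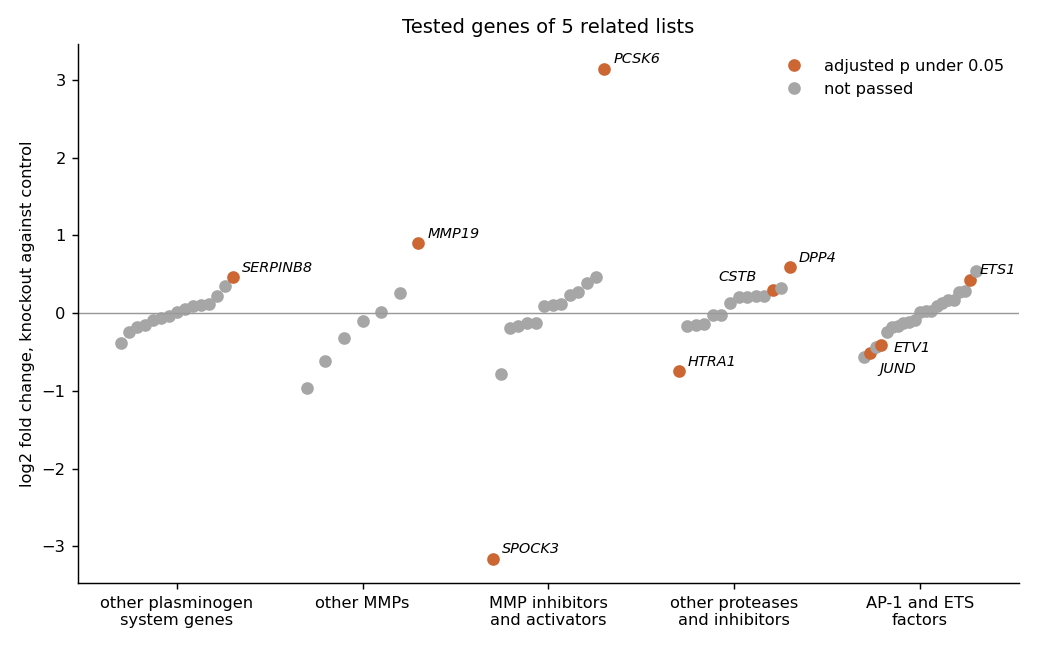
Log2 fold change of knockout against control (y axis) for every tested gene of 5 lists, each point a gene, orange where it passed at an adjusted p under 0.05 and grey where it did not. The named points are the 10 that passed, and PCSK6 (3.15) and SPOCK3 (-3.16) lie farthest from 0.

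The genes whose log2 CPM followed a member most closely over the 6 libraries, among 10495 genes with a mean of at least 5 CPM, were ZNF317, TAFAZZIN and ENPP4 for PLAU (r = 0.998, 0.997 and 0.996). For MMP14 they were USP10, ZNF574 and C2CD2L (r = 0.999, 0.999 and 0.997), and for TIMP2 they were SAA1, STAG3L4 and EXT1 (r = 0.999, 0.997 and 0.997). With 6 points and this many genes such values only name the nearest profiles.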

How the data were processed

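The authors deposited whole-number raw read counts per gene symbol, per the file headers and values, made after FastQC and alignment with STAR version 2 to GRCh38, as the submitters' processing notes list. The counter, its strand setting and its annotation were not given in the sources used here. A log2 CPM table of 15066 genes, also deposited by the authors, served 1 alternative. Counts were fitted with edgeR 4.0.16 (R 4.3.3): filterByExpr, TMM, quasi-likelihood F test of the genotype, two-sided, Benjamini-Hochberg adjustment over 14199 genes, threshold 0.05. The SE is the log2 fold change divided by the square root of F. CPM are on the TMM scale, and log2 CPM for correlations used a prior count of 2. The fit was tested on simulated negative binomial counts in which no library was made to stand apart. That run does not speak to the effect of knockout replicate 1. Groups come from the genotype label and replicate numbers from the titles. A gene at 0 could hold up to 3 counts (0.0949 to 0.118 CPM) by counting error alone. Of non-zero counts at genes with at most 19 counts, 70.9% were even, so pairs may have been counted as 2 reads, which would raise that limit.

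The members and lists were chosen with earlier results of these data known. Named genes are the members, up to 3 genes with the smallest p among those that passed in each of 5 lists, and the 3 nearest profiles per member that passed. Other list genes were named after their values were seen. The rule names 10 genes, of which 1 is not reported here or in the lists. Positions are from GENCODE 29 (25100 of 25330 symbols matched). Neighbours are the 20 nearest tested genes on each side. Alternatives used DESeq2 1.42.0, limma-voom and limma (3.58.1), RLE factors, library size scaling, other filters, a replicate block, a 1.5-fold threshold (glmTreat), subtraction of the neighbour median and leaving out each library.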

Additional observations from a re-analysis of the deposited data

How the results depend on the processing

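PLAU and TIMP2 kept their direction and call under every alternative but the 1.5-fold test (glmTreat; 0.67 and 0.33, both adjusted p = 1), which also ended MMP14 (0.39, adjusted p = 1). Their log2 fold changes ran from 0.55 to 0.81 and from 0.23 to 0.36. With the neighbour median subtracted MMP14 was at 0.18 (adjusted p = 0.308) and PLAUR reversed, to -0.048 (adjusted p = 0.886). DESeq2 called PLAT (-0.41) and TIMP1 (0.24), and no filter on low counts called PLAT (-0.40), MMP1 (1.17) and TIMP1 (0.25). The replicate block called PLAT (-0.43, adjusted p = 0.0169), MMP1 (0.96, adjusted p = 0.0147) and TIMP1 (0.25, adjusted p = 0.0152) and raised the count of changed genes from 1718 to 3099. The deviations of same-numbered libraries correlated at 0.316, 0.139 and 0.086. Of the 3 numbers, 1 was its own best match, replicate 1, whose 2 libraries correlated at -0.243 to -0.154 with libraries of other numbers. The labels do not say whether same-numbered libraries share a passage or day, and 3 coefficients cannot decide it. The 1.5-fold test left 153 changed genes. On leaving out each library in turn, the count ran from 524 (without knockout replicate 3) to 3430 (without knockout replicate 1) and was 1055, 649 and 550 without control replicates 1, 2 and 3. The log2 fold changes then ran from 0.67 to 1.63 for MMP1, 0.33 to 0.51 for MMP14, -0.58 to -0.29 for PLAT, 0.021 to 0.30 for PLAUR, -0.0056 to 0.58 for SERPINE2, 0.17 to 0.30 for TIMP1 and -0.16 to 0.054 for TIMP3, where SERPINE2 (-0.0056) and TIMP3 (0.054) reversed without knockout replicate 2. The knockout minus control difference in the log2 ratio of MMP14 to TIMP2 was 0.05 with all libraries, reversed to -0.040 without that library and reached 0.19 without knockout replicate 1. The causes of these changes were not tested. The same alternatives were run on the 10 named list genes, a choice made after seeing the data: the 1.5-fold test ended every call but that of PCSK6 (adjusted p from 0.236 to 1), and subtracting the neighbour median ended those of SERPINB8, CSTB, DPP4, ETV1 and JUND.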
